A study of Mus musculus with 6 samples.

Results

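The genes described here are 9 immediate early genes measured in cells sorted from mouse cortex as astrocytes. They are the zinc finger factors Egr1, Egr2, Egr3 and Egr4, the orphan nuclear receptors Nr4a1, Nr4a2 and Nr4a3, and the activity-regulated genes Arc and Npas4. They were taken by gene symbol from a table of 24421 genes, and all 9 symbols were present. Values from 3 libraries of CD51-Flp mice given clozapine-N-oxide (CNO), the ligand of hM3D, were set against 3 libraries of CD51-Flp mice given saline. All of these mice had received, after birth, a viral vector (AAV-GFAP-FSF-hM3D-mCherry) in which Flp recombination and the GFAP promoter together drive the designer receptor hM3D and the red protein mCherry. Injections were given 2 times per day from postnatal day 7 to day 21, and mCherry-positive cortical cells were collected by flow sorting at day 21. No group given CNO without the receptor was analysed here, so an action of CNO apart from hM3D cannot be told apart from one through it.

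Immediate early genes are switched on within minutes of a stimulus without the need for new protein. Receptors coupled to Gq raise cytosolic calcium and activate the MAP kinase cascade. These signals reach the genes through serum response factor with its ternary complex partners, which bind CArG boxes, and through CREB family proteins, which bind cAMP response elements (CREs). Egr proteins bind a GC-rich site and are restrained by the corepressors Nab1 and Nab2, of which Nab2 is itself induced by Egr proteins. Nr4a receptors act without a known endogenous ligand, and Nr4a1 and Nr4a2 can pair with retinoid X receptors. In the brain, Arc and Npas4 are best known from neurons, where they shape synapses. Early genes of the Egr and Nr4a families respond in glia too, and are also known to respond to the dissociation of tissue into single cells.

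The promoters of Nr4a1 and Egr2 are shown because these were the members with the smallest p-values in the comparison below. Each line gives the 250 bases before the start site of a principal transcript, from RefSeq on GRCm38.p6, 5′ to 3′ on the gene's strand. Capitals mark CRE half-sites (TGACG on either strand) and the CArG box.
Nr4a1, chr15:101266596-101266845, plus strand: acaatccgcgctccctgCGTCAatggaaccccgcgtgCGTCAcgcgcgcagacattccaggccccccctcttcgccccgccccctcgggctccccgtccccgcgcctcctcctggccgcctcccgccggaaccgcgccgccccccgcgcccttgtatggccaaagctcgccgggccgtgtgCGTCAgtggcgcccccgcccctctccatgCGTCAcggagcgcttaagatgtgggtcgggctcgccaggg
Egr2, chr10:67537619-67537868, plus strand: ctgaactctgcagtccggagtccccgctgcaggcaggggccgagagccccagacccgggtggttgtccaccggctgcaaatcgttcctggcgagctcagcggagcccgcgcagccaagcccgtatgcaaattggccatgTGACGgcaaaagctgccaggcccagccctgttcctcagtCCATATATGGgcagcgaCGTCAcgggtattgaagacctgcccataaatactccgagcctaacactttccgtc

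The Nr4a1 window held 4 CRE half-sites, and 0.137% of all 32851 promoter windows of this length held 4 or more. The Egr2 window held 2 half-sites and 1 CArG box. At least 1 half-site was present in 17.8% of all windows and a CArG box in 1.47%. A full CRE (TGACGTCA) was found in neither window, against 1.55% of all windows. The Nr4a1 window also held 1 match to the Egr site GCGNGGGCG, searched on both strands, which 4.70% of all windows held and which overlapped none of the half-sites. The Nr4a response element AAAGGTCA, searched on both strands and present in 1.34% of all windows, was found in neither. Among the other members, half-sites numbered 4 for Nr4a2 and 2 for Egr4 before a principal start site, and 4 for Nr4a3 and 2 for Npas4 before a RefSeq start site that is not a principal start in GENCODE. Promoter windows were matched for 6 of the 9 members, and windows of Egr1, Egr3 and Arc were not used here. These matches describe letters in a window, not occupied sites.

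The 6 libraries held 3908076 reads in CNO 1 and 12010901 to 19224186 reads in the other 5. With each library thinned to the depth of CNO 1, 8327 to 11974 genes were detected in CNO and 13368 to 13767 in saline. Among the 3203 genes with a mean of 100 to 300 normalized counts, 34.1%, 3.56% and 12.1% were at 0 in CNO 1, 2 and 3, against 0.687% to 1.22% in the saline libraries. Xist exceeded 10000 normalized counts in CNO 2, CNO 3 and saline 4 only, so the libraries also differed in sex-linked transcripts. Saline 4 held Xist at 35117 together with Y-linked Ddx3y at 213 normalized counts. All 12 astrocyte markers checked had reads in every CNO library, and their summed level was 168275 to 605654 in CNO and 186669 to 284512 in saline. Their log2 fold changes were above 0 for 11 (median 0.46) and below 0 for 1, Gfap. Gfap had 4.23 (1 read), 952 and 59.2 normalized counts in CNO 1, 2 and 3, against 1307, 374 and 507 in saline 3, 4 and 5. S100b averaged 4782 ± 1102 in CNO and 1031 ± 169 in saline (SD, n = 3 each). Markers of other cells were present as well, and in every library the oligodendrocyte markers summed higher than the astrocyte markers. The 12 oligodendrocyte markers summed to 1841017 to 3487358 in CNO against 525544 to 754645 in saline. Most of that sum was Mbp, at 1585698 to 2963042 in CNO and 451368 to 604104 in saline. Of the 12, 8 had log2 fold changes above 0 and 4 below (median 1.70). The 12 microglia and macrophage markers summed to 84290 to 214277 in CNO against 109346 to 136911 in saline, with 6 above 0 and 6 below (median -0.06). In normalized counts, the 8 precursor markers summed to 5790 to 13411 in CNO against 3246 to 6145 in saline, although 6 of the 8 had log2 fold changes below 0 (median -0.58). The 8 endothelial markers summed to 279 to 6224 in CNO against 786 to 2160 in saline, with 6 of the 8 below 0 (median -1.16). The 10 mural and fibroblast markers summed to 1507 to 5374 against 1466 to 3133, with 7 of the 9 tested below 0 (median -1.45). Kcnj8, a mural marker, was at 0 in all CNO libraries and in saline 3 and saline 5. The part of these cells in the values below was not tested. Nothing in the labels states that each library was 1 mouse, so the p-values measure the spread between these libraries, which may be technical.

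In normalized counts, Nr4a1, Egr2 and Egr3 were lower in each of the 3 CNO libraries than in any saline library. On that scale Egr1, by far the most abundant member, overlapped between the groups. Group means in CNO were 0.264 of those in saline for Nr4a1, 0.229 for Egr2 and 0.317 for Egr3. Nr4a2, Nr4a3 and Arc overlapped between groups, and Egr4 and Npas4 had no reads in any CNO library. None of the 7 members tested passed the test across all genes, and Egr4 and Npas4 were too low to enter it. The test was limma on log2(normalized count + 1) over 13028 genes with a mean of at least 10, with Benjamini-Hochberg adjustment at 0.05. It called 0.0154% of all tested genes, the oligodendrocyte markers Mbp and Mobp, both higher in CNO. In bulk RNA, fewer cells of a type that expresses a gene and less RNA per cell cannot be told apart.

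**Figure D1:**
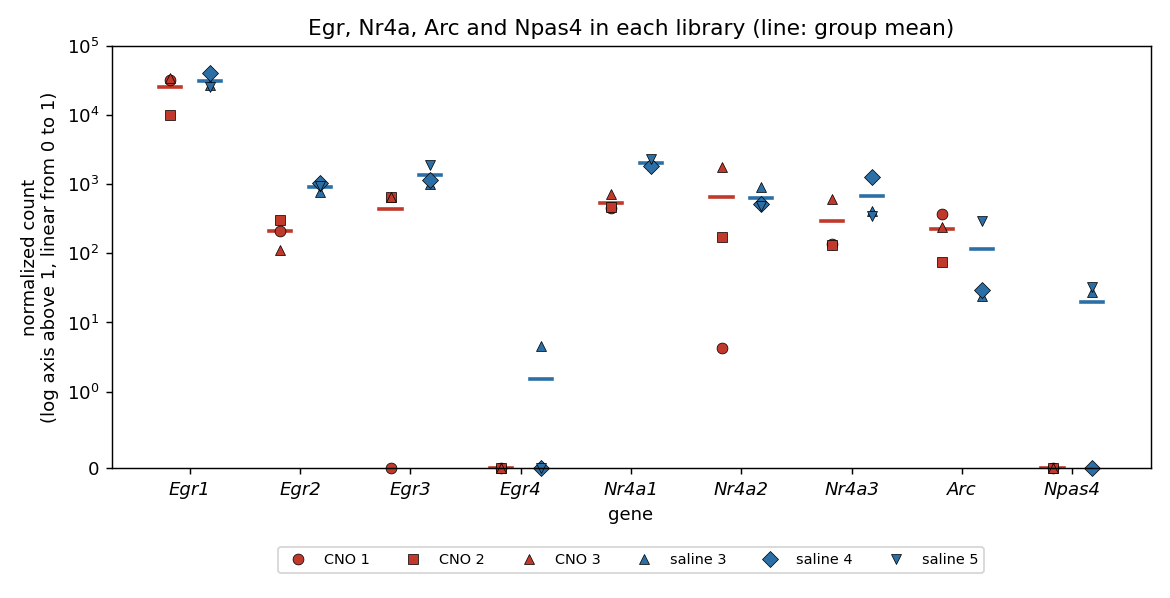
Normalized counts of the 9 genes (x axis) in each library, on a y axis that is logarithmic above 1 and linear from 0 to 1. Red symbols are CNO libraries, blue symbols saline libraries, the symbol shape gives the replicate number and lines mark group means. For Nr4a1 the 3 CNO libraries sit between 448 and 714, all below the saline libraries, while the Egr1 symbols of the groups overlap.

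Of the Egr family, Egr1 (early growth response 1, a first-line target of the MAP kinase cascade) had 32075, 9889 and 34238 normalized counts in CNO 1, 2 and 3, against 27431, 40414 and 25700 in saline 3, 4 and 5. CNO 2 lay below every other library, and CNO 1 and 3 lay within the saline range. The mean was 25401 ± 13477 in CNO and 31182 ± 8042 in saline (SD, n = 3 each), a log2 fold change of -0.46 ± 0.44 (SE, limma adjusted p = 0.699). Without CNO replicate 2 the log2 fold change was 0.12, so on the deposited scaling the sign for Egr1 rested on that library. As a share of all reads, Egr1 was 0.194%, 0.0695% and 0.206% in CNO 1, 2 and 3. It was 0.278%, 0.420% and 0.268% in saline 3, 4 and 5. Each CNO share lay below each saline share, and how many of all genes did so was not counted. With quantile scaling the log2 fold change was -1.35 (limma adjusted p = 0.648).

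Egr2 (also called Krox20, needed for myelination by Schwann cells in the peripheral nerve) lies on chromosome 10 at 67535475 to 67542188 (GRCm38, protein-coding). It had 207, 306 and 113 normalized counts in CNO 1, 2 and 3, against 764, 1037 and 939 in saline 3, 4 and 5. The groups did not overlap, and the highest CNO library stood well below the lowest saline library. Recovered reads were 49, 414 and 116 in CNO, where the saline mean level would have given 216, 1234 and 941 reads. The mean was 209 ± 96.9 in CNO and 913 ± 138 in saline (SD, n = 3 each). The log2 fold change was -2.23 ± 0.83 (SE), with a 95% interval of -4.05 to -0.40 and an adjusted p of 0.488 in limma.

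Egr3 (a family member known from muscle spindle development and from neurons, and often induced downstream of calcium and calcineurin) lies on chromosome 14 at 70077203 to 70082614. It had 0, 649 and 647 normalized counts in CNO 1, 2 and 3, against 1014, 1154 and 1915 in saline 3, 4 and 5. CNO 2 and CNO 3 were nearly equal and CNO 1 held no read, where the saline mean level would have given 322 reads. Of the 2958 genes with a mean of 500 to 2000, 3.82% were at 0 in CNO 1, against 0.304% in CNO 2 and 0.744% in CNO 3. The part of this loss of transcripts in the Egr3 value was not tested. The fitted log2 fold change of -4.13 ± 2.05 (SE, limma adjusted p = 0.550) turned largely on that 0, and it was -1.01 without CNO replicate 1, with the groups still apart.

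Egr4 was near the limit of detection, with 8 reads in saline 3 and 0 reads in the other 5 libraries, including all CNO libraries. A count of 0 allows up to 3 reads, or 12.7, 2.22 and 2.91 normalized counts in CNO 1, 2 and 3, so a difference in Egr4 was not detectable at this depth. It did not enter the test.

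Of the Nr4a family, Nr4a1 (Nur77, which in myeloid cells restrains inflammatory genes and in neurons follows calcium entry through MEF2 and CREB) lies on chromosome 15 at 101254269 to 101274795. It had 448, 466 and 714 normalized counts in CNO 1, 2 and 3, against 2040, 1847 and 2277 in saline 3, 4 and 5. Both groups were tight and the gap between them exceeded the range within either. The mean was 543 ± 149 in CNO and 2055 ± 216 in saline (SD, n = 3 each). The log2 fold change was -1.95 ± 0.59 (SE), with a 95% interval of -3.25 to -0.64. It was lower in 3 of 3 CNO libraries, and the adjusted p of 0.488 in limma missed the threshold. Leaving out any 1 library kept the log2 fold change between -2.16 and -1.83. DESeq2 on all genes called Nr4a1 lower (adjusted p = 0.0356), where it called 3.81% of the genes with an adjusted p lower. DESeq2 did not call it with the filter on low values (adjusted p = 0.0874), where 1.66% of genes were called lower, and edgeR with the same filter did not call it either (adjusted p = 0.535).

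Nr4a2 (Nurr1, required for midbrain dopamine neurons) showed a different pattern. It had 4.23, 170 and 1766 normalized counts in CNO 1, 2 and 3, against 924, 509 and 486 in saline 3, 4 and 5. CNO 3 held the highest value of all 6 libraries and CNO 1 the lowest, a single read. Group means were nearly equal, 647 ± 973 in CNO and 640 ± 246 in saline (SD, n = 3 each). The log2 fold change was -2.39 ± 1.73 (SE, limma adjusted p = 0.643), and it was -0.16 without CNO replicate 1 and -4.36 without CNO replicate 3.

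Nr4a3 (NOR-1, the remaining family member) had 135, 132 and 608 normalized counts in CNO 1, 2 and 3, against 414, 1253 and 343 in saline 3, 4 and 5. CNO 1 and CNO 2 lay below every saline library, and CNO 3 lay above saline 3 and saline 5. The log2 fold change was -1.34 ± 1.01 (SE, limma adjusted p = 0.651). It was -2.07 without CNO replicate 3, -0.76 without saline replicate 4 and between these with any other library left out.

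**Figure D2:**
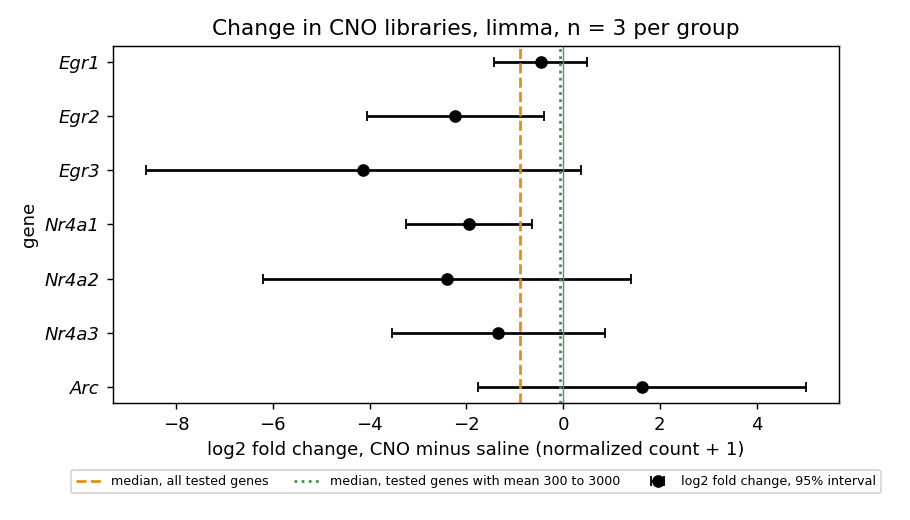
Log2 fold changes, CNO minus saline, of the 7 tested genes (rows) on the log2(normalized count + 1) scale, with 95% intervals from limma (n = 3 libraries per group). The intervals of Egr2 and Nr4a1 lie below 0, and the others include 0. Dashed and dotted lines mark the medians of all tested genes (-0.89) and of tested genes with a mean of 300 to 3000 (-0.07).

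Arc (a cytoskeleton-associated protein that forms capsid-like particles and controls AMPA receptor uptake in neurons) had the opposite sign in the fit. It had 372, 74.0 and 238 normalized counts in CNO 1, 2 and 3, against 23.8, 29.6 and 298 in saline 3, 4 and 5. All CNO libraries lay above saline 3 and saline 4, and saline 5 lay above CNO 2 and CNO 3. The mean was 228 ± 149 in CNO and 117 ± 157 in saline (SD, n = 3 each), with a log2 fold change of 1.63 ± 1.55 (SE, limma adjusted p = 0.700). It was 0.98 without saline replicate 3 and 2.77 without saline replicate 5, the lowest and highest values with 1 library left out.

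Npas4 (a factor induced by calcium entry almost exclusively in neurons) had 0 reads in CNO 1, 2 and 3, against 49, 0 and 64 reads in saline 3, 4 and 5. Its mean of 20.0 ± 17.5 normalized counts in saline (SD, n = 3) was at least 3.37-fold higher than the floor of 5.94, the mean over the CNO libraries of 3 reads per library. Saline 4 also lacked it, so the groups overlapped, and its mean over the 6 libraries lay just under the minimum for testing. The 12 neuron markers summed to 11330 to 17850 normalized counts in CNO and 9053 to 11740 in saline. Yet 6 of the 10 tested had log2 fold changes below 0 and 4 above (median -0.56). Of these markers 8 were at 0 in CNO 1, 0 in CNO 2 and 3 in CNO 3. The part of neuronal RNA in the Arc and Npas4 values was not tested.

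In all, 7 of the 9 genes passed the filter on low values, each with a mean above 10 in both groups, and 2 (Egr4 and Npas4) did not. None of the 7 was called in limma, while 2, Nr4a1 and Egr2, had an unadjusted p under 0.05, both lower in CNO, beside 7.25% of all tested genes lower at that level and 2.43% of those with a mean of 300 to 3000. That count of 2 became 4 without CNO replicate 3, with quantile scaling, in limma-voom or with Xist class as a covariate. It became 3 in limma with 8 rather than 1 added to the counts, or with no filter. It became 1 without saline replicate 3, without saline replicate 5 or in edgeR with no filter. The shares of all genes at that level under these settings were not counted. The 3 whose groups did not overlap stood beside 12.5% of all tested genes lower without overlap, and 5.67% of those with a mean of 300 to 3000. All 6 tested Egr and Nr4a genes had log2 fold changes below 0, as did 68.3% of all tested genes and 52.5% of those with a mean of 300 to 3000. For Egr1 the sign turned without CNO replicate 2, and for Nr4a2 it turned in DESeq2 and in edgeR without a filter. The median log2 fold change was -1.95 in the Nr4a family and -2.23 in the Egr family, against -0.89 over all tested genes. Quantile scaling moved the median of all genes to -0.08. Relative to the median, Nr4a1 stood at -1.06 and Egr2 at -1.34, and with quantile scaling at -2.26 and -2.18. Egr1 stood at 0.42 relative to the median of all genes and at -1.27 with quantile scaling. Its mean over the 6 libraries was 28291 normalized counts. The 107 tested genes with a mean of 10000 or more had a median log2 fold change of 0.60, above the -0.46 of Egr1. The place of Egr1 among other genes thus depended on the scaling and on the genes set beside it.

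Levels of different genes were compared after division by exon length (GENCODE release 21 for mouse). In CNO libraries Egr1 led with 5665 ± 3006 normalized counts per kilobase, followed by Nr4a2 with 159 ± 240, Nr4a1 with 155 ± 42.4, Egr3 with 98.0 ± 84.9, Arc with 74.5 ± 48.8, Egr2 with 61.4 ± 28.5 and Nr4a3 with 48.7 ± 45.8 (SD, n = 3). Below Egr1, each of these overlapped with its neighbour in the order. In saline libraries Egr1 led with 6954 ± 1794 per kilobase, followed by Nr4a1 with 586 ± 61.5, Egr3 with 309 ± 110, Egr2 with 269 ± 40.7, Nr4a2 with 158 ± 60.7, Nr4a3 with 112 ± 84.5 and Arc with 38.4 ± 51.3 (SD, n = 3). There Egr1 and Nr4a1 each stood clear of the gene next below them, and the later neighbours overlapped. Npas4, with 4.83 ± 4.22 per kilobase, and Egr4, with 0.704 ± 1.22, came last in saline.

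Genes that act on or with these factors were read from lists of other members of the pathway, and none of their genes passed in limma. Of 7 tested partners of Egr and Nr4a proteins, 3 had log2 fold changes above 0 and 4 below, with a median of -0.46. At an unadjusted p under 0.05, 2 were higher and 1 lower in limma, beside 2.28% of all tested genes higher and 7.25% lower at that level, and edgeR and DESeq2 called 0. Nab2, the corepressor that Egr proteins induce, had 0, 249 and 0.970 normalized counts in CNO 1, 2 and 3, against 849, 529 and 379 in saline 3, 4 and 5. The groups did not overlap, with CNO 1 and CNO 3 at or near 0 (log2 fold change -6.14 ± 2.16 SE, limma adjusted p = 0.488). Nab1, its paralog, lay the other way, at 3310 ± 2507 in CNO and 1070 ± 709 in saline (SD, n = 3 each), with overlap (adjusted p = 0.522 in limma). Ncoa2, a nuclear receptor coactivator, averaged 5405 ± 1917 in CNO and 2073 ± 181 in saline, without overlap (adjusted p = 0.488 in limma). Of all tested genes, 12.5% were lower without overlap, as Nab2 was. How many were higher without overlap was not counted. Both points hold for the genes below as well.

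Of the 17 tested transcription factors upstream of the members, 6 had log2 fold changes above 0 and 11 below, with a median of -0.84. At an unadjusted p under 0.05, 1 was higher and 2 lower in limma, beside 2.28% of all tested genes higher and 7.25% lower. In edgeR and DESeq2, 0 were called. Srf, which encodes serum response factor, had 0, 11.8 and 0 normalized counts in CNO 1, 2 and 3, against 107, 49.6 and 114 in saline 3, 4 and 5. Its groups did not overlap, at a low level in both (log2 fold change -5.19, limma adjusted p = 0.491). Elk3, a ternary complex partner of serum response factor, averaged 112 ± 133 in CNO and 591 ± 217 in saline, also without overlap (adjusted p = 0.522 in limma). The acetyltransferase gene Ep300 averaged 5955 ± 1068 in CNO and 3076 ± 772 in saline without overlap (adjusted p = 0.512 in limma).

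In the MAP kinase cascade, 4 of 15 tested genes had log2 fold changes above 0 and 11 below, with a median of -0.24. At an unadjusted p under 0.05 in limma, 1 was higher, beside 2.28% of all tested genes higher at that level. Hras, a small GTPase above the cascade, had 1247, 349 and 232 normalized counts in CNO 1, 2 and 3, against 49.9, 20.8 and 44.3 in saline 3, 4 and 5. Every CNO library exceeded every saline library (log2 fold change 3.66 ± 1.32 SE, limma adjusted p = 0.488), and DESeq2 with the filter called it higher (adjusted p = 0.0063), as it did 0.635% of genes with an adjusted p. Nras, a related GTPase, averaged 2253 ± 983 in CNO and 959 ± 243 in saline with overlap (limma adjusted p = 0.555). Rps6ka2, a ribosomal S6 kinase, had a log2 fold change of -4.46 ± 2.27 (SE) with overlap (limma adjusted p = 0.550).

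Other immediate early genes were mixed. Of 23 tested, 7 had log2 fold changes above 0 and 16 below, with a median of -0.39. None passed in limma, where 3 were lower at an unadjusted p under 0.05, beside 7.25% of all tested genes. DESeq2 with the filter called 1, Maff, lower (adjusted p = 0.00116), as it did 1.66% of genes with an adjusted p. Maff, a small Maf factor, had 0, 2.22 and 0.970 normalized counts in CNO 1, 2 and 3, against 296, 181 and 64.9 in saline 3, 4 and 5. The groups were far apart (log2 fold change -6.37 ± 1.93 SE, limma adjusted p = 0.488). Groups also did not overlap for Cyr61, a matricellular protein, at 59.5 ± 72.9 in CNO and 682 ± 828 in saline, and for Sik1, a salt-inducible kinase that responds to CREB, at 32.7 ± 53.1 and 189 ± 15.9 (limma adjusted p = 0.519 and 0.529). Sik1 is named after its values were seen. With Maff, these were 3 of the 23 tested genes, beside 12.5% of all tested genes lower without overlap. Fosl2, an AP-1 subunit, averaged 74.8 ± 124 in CNO and 796 ± 870 in saline with overlap (limma adjusted p = 0.496). The most abundant genes of this list, Zfp36, Jun, Fos, Atf3 and Dusp1, all overlapped between the groups. Their log2 fold changes were 0.14, 0.30, -0.05, -0.03 and 0.52, in that order. They too are named after their values were seen.

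Of the 10 tested neuronal activity-regulated genes, 6 had log2 fold changes above 0 and 4 below, with a median of 0.29, and none had an unadjusted p under 0.05 in limma or passed after adjustment. The 3 with the smallest p were Inhba (0.493 ± 0.854 in CNO, 46.3 ± 56.2 in saline), Per1 (1736 ± 1052 and 777 ± 277) and Rasl11a (229 ± 397 and 0.567 ± 0.982), all with overlap. Bdnf, a neurotrophin gene that Npas4 regulates in neurons, had 0 reads in every CNO library and 24.4, 1.60 and 0 normalized counts in saline 3, 4 and 5, too few to test.

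**Figure D3:**
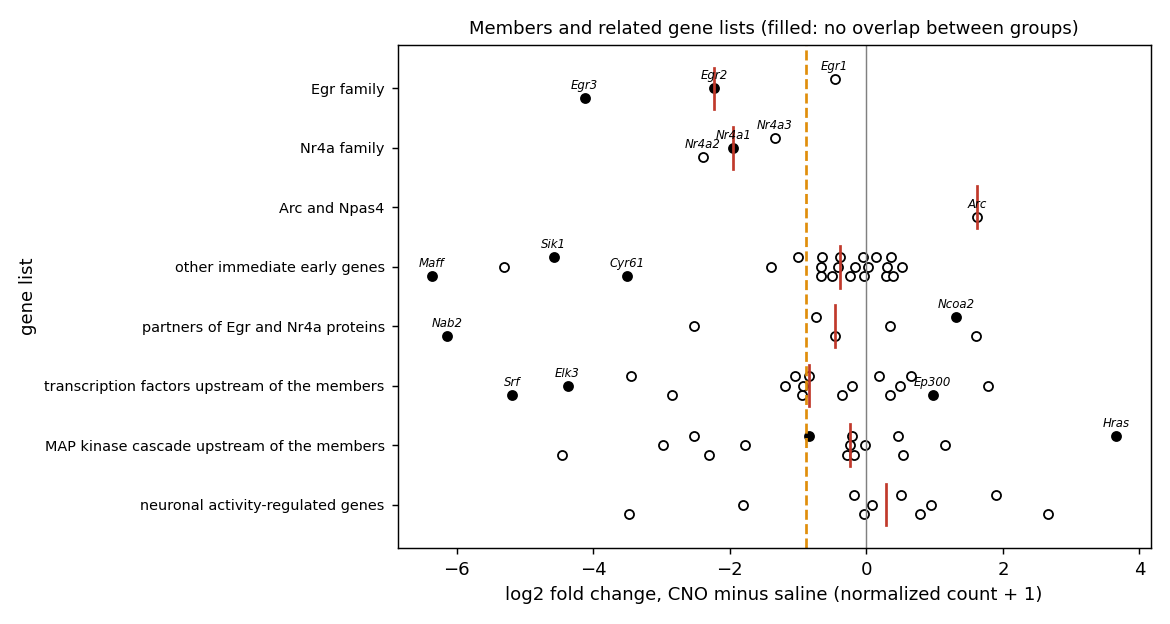
Log2 fold changes, CNO minus saline, of tested genes in the Egr and Nr4a families, Arc, and the related gene lists (rows), on the log2(normalized count + 1) scale. Filled points are genes whose groups did not overlap, red bars are list medians and the dashed line is the median of all tested genes (-0.89). Egr2, Egr3 and Nr4a1 are filled among the family members, with Maff, Sik1 and Cyr61 filled among the other immediate early genes. Of all tested genes, 12.5% were lower without overlap.

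Across the 6 libraries the members did not share 1 profile. On the log2 scale, Pearson's r was 0.84 between Egr2 and Nr4a1 and 0.92 between Egr3 and Nr4a2, but 0.10 between Egr1 and Egr2, and r between Arc and the other tested members ran from -0.55 to 0.06. These describe 6 libraries that share depth and group, and the high value for Egr3 and Nr4a2 includes CNO 1, where both were at or near 0. The genes most like Nr4a1 by Pearson's r were Twf2 (r = 0.998), Smg8, Omd, Nrm and Mx2. Those most like Egr1 were Erf (r = 0.995), Trim30a, Gemin5, Ccdc171 and Tmem55b, and those most like Arc were Heatr6 (r = 0.994), Col4a1, Ndufaf7, Cox7c and Mbd6. Twf2 had 38.0, 44.4 and 83.4 normalized counts in CNO 1, 2 and 3, against 314, 309 and 443 in saline 3, 4 and 5. With 6 libraries and 13028 genes, values of r this high are a description only.

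**Figure D4:**
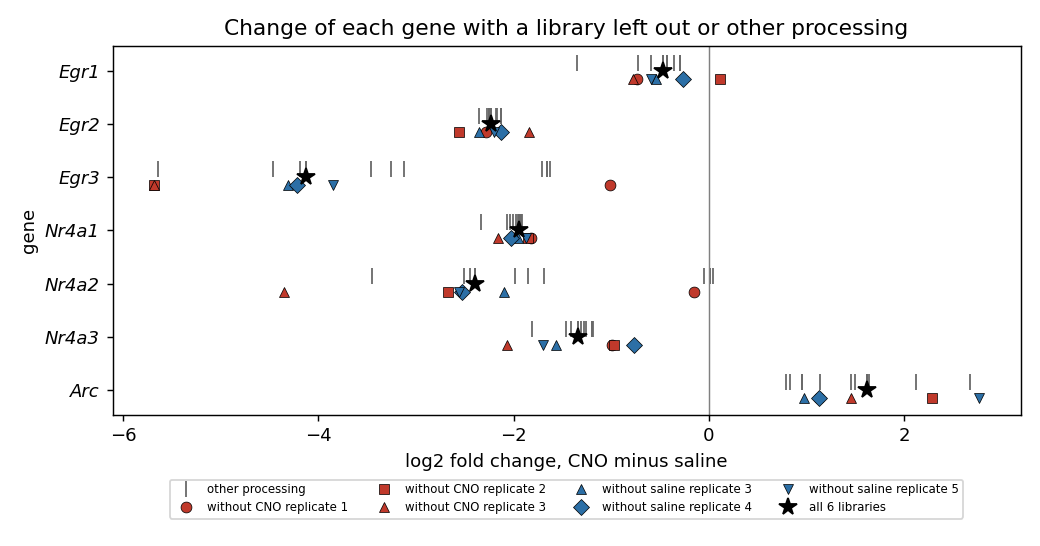
Log2 fold change, CNO minus saline (x axis), of the 7 tested genes (rows) with all 6 libraries (star), with 1 library left out (coloured symbols, CNO red and saline blue) and under other processing (grey ticks). Egr2 and Nr4a1 keep close values throughout, from -2.56 to -1.84 and from -2.33 to -1.83, whereas Egr3 and Nr4a2 shift toward 0 without CNO replicate 1 and Egr1 crosses 0 without CNO replicate 2.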

How the data were processed

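The authors deposited 1 table of normalized counts, a signal with 1 column per library: read counts per gene divided by 1 size factor per library. Every value was a whole multiple of its library's smallest value (100% within 1e-06 reads), so whole reads were recovered. The submitters' processing notes name STAR 2.5.0a, Trimmomatic 0.4, DESeq2 1.20.0, MultiQC 0.9 and FastQC 0.10.1, without roles, and build mm10. How reads were counted, on which annotation and with what strand setting, is not given in the sources used here. No member overlapped another gene in GENCODE release 21 for mouse.

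Groups and replicate numbers came from the labels. The members and lists were chosen with earlier results of these data known. The test was limma 3.58.1 in R 4.3.3 with a variance trend, 2-sided, on log2(normalized count + 1). All members were named, with the 3 genes of smallest unadjusted p per list, and 5 genes by Pearson's r for the most abundant Egr, the most abundant Nr4a and Arc. Alternatives included edgeR 4.0.16, DESeq2 1.42.0 and limma-voom on recovered reads. The method was also run on simulated data with planted changes, and how many it recovered is not given here. Reads carry no molecular identifiers, so floors cover counting error only.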

Additional observations from a re-analysis of the deposited data

How the results depend on the processing

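Over 20 alternatives, none of the 7 tested genes was called except Nr4a1 in DESeq2 on all genes, which raised the members called to 1. Egr2, Egr3, Nr4a1 and Nr4a3 stayed below 0 and Arc above 0 in every alternative that could test them. Nr4a2 turned to 0.046 in edgeR without a filter, 0.018 in DESeq2 with the filter and 0.017 in DESeq2 on all genes, which take ratios of mean counts rather than means of log values. Egr1 ran from -0.78 to 0.12 with 1 library left out. The members without overlap numbered 3 to 5 with 1 library left out, 5 of them without CNO replicate 3. Groups separate more easily with fewer libraries. How many of all genes did so with 1 library left out was not counted, so the rise cannot be set against other genes. Calls over all genes, 2 in the reported fit, were 0 with a mean filter of 50, with only genes read in every library, with quantile scaling, without the variance trend and in edgeR with the filter, and 0 to 2 with 1 library left out. They were 16 in edgeR without a filter, 16 in limma-voom, 249 in DESeq2 with the filter and 555 in DESeq2 on all genes. The cause of these shifts was not tested. No paired analysis was possible because the groups share only replicate number 3.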

Other observations

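Ptgs2, the inducible cyclooxygenase and itself an early response gene, tracked Nr4a2 across the 6 libraries (Pearson's r = 0.997 on the log2 scale). It was chosen after its values were seen. Ptgs2 had 4.23, 162 and 1619 normalized counts in CNO 1, 2 and 3, against 578, 397 and 353 in saline 3, 4 and 5. Both genes were thus at 1 read in CNO 1 and highest in CNO 3.

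Within a library, Nr4a1 stood at 1.40%, 4.71% and 2.09% of the Egr1 count in CNO 1, 2 and 3, against 7.44%, 4.57% and 8.86% in saline 3, 4 and 5. Egr2 stood at 0.646%, 3.10% and 0.329% of the Egr1 count in CNO 1, 2 and 3, against 2.78%, 2.56% and 3.65% in saline 3, 4 and 5. For both genes CNO 2, the library with the least Egr1, lay within the saline range, and the other CNO libraries lay below it.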
